A study of Mus musculus with 7 samples.

Results

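Genes of the transforming growth factor beta (TGF-beta) and bone morphogenetic protein (BMP) pathway were compared between lungs of claudin-18 knockout and wild-type mice. Members were every array probe whose gene symbol begins with Tgfb, Bmp, Acvr, Inhb or Ltbp, or with Smad or Gdf and a digit, together with Id1, Id2, Id3, Grem1, Nog and Chrd. The rule found 88 probes of 58 genes among 25697 probes and 16593 named genes on the array. Symbols came from the platform annotation, and 52 of these probes, standing for 36 genes, were detected on enough arrays to be tested.

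Whole lungs of male mice aged 3 to 4 months were profiled on Illumina MouseRef-8 v2 bead arrays, with 3 knockout and 4 wild-type arrays. Knockout mice lacked exons 2 and 3 of Cldn18 in every tissue, since a floxed allele had been recombined by a CMV-driven Cre transgene. Both genotypes had the same mixed background of 129S6/SvEvTac, C57BL/6J and Balb/c and received no treatment. Nothing in the labels says that each array is a separate animal or that the genotypes were littermates, so p-values measure the spread between these samples only.

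These genes encode a family of secreted dimers and the machinery that reads them. A dimer brings together type I and type II receptor kinases, the type I receptor phosphorylates receptor Smads, and these enter the nucleus with Smad4. TGF-beta and activin act mainly through Smad2 and Smad3, and BMPs through Smad1, Smad5 and Smad9. Latent TGF-beta binding proteins hold TGF-beta in the matrix, antagonists such as noggin and chordin hold BMPs away from receptors, and Id genes and Smad6 are induced by BMP signals. In the lung the pathway is known for its part in branching, in vessel integrity and in fibrosis.

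The arrays detected 10291 to 11715 probes in the knockout and 11211 to 12376 in the wild type. Median signals were 259 to 349 in the knockout and 355 to 468 in the wild type, so they did not overlap, and the part of this in the results below was not tested. The column headers give all arrays the same number, with letters A, B and D for the knockout and E to H for the wild type. Genotype and the order of these letters cannot be told apart. Cldn18 itself stood at a normalized log2 level of 10.48, 10.38 and 10.25 in the knockout, and the wild-type arrays read 13.85, 13.94, 14.48 and 14.04. It fell by 3.71 (SE 0.19, limma adjusted p = 4.2e-05), although the place of its probe relative to the deleted exons is unknown. The lung markers Sftpc, Sftpd, Scgb1a1 and Ager were bright in both genotypes, with mean levels from 14.76 to 16.07.

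In the knockout 8 of the 36 tested genes were lower and 2 were higher. The lower genes were the ligands Bmp3, Bmp5 and Bmp6, the receptors Acvrl1 and Tgfbr3, the inhibitory Smad6, the latency protein Ltbp1 and the BMP binder Bmper. The higher genes were Id2, a nuclear inhibitor of helix-loop-helix factors, and Bmp1, a protease that bears a BMP name. Bmper was 4.39-fold lower and Tgfbr3 was 2.74-fold lower, both detected on all 7 arrays. Whether lower values reflect fewer cells of a type or less RNA per cell cannot be told apart in whole lung.

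A gene passed when limma's Benjamini-Hochberg adjusted p, taken over all 11902 probes tested, was under 0.05, and each gene stood by its brightest tested probe. By the same rule 5.11% of all 8537 named genes tested were lower and 3.68% were higher, 8.79% together, against 22.2% and 5.56% of the members. The median log2 change was -0.34 over the members and 0.01 over all named genes. With median scaling in place of quantile normalization the members gave 11 lower and 0 higher genes, and 943 of all 11902 probes passed, against 1056 in the reported fit. The median of all probes then lay at -0.14 instead of 0.02, and the members' median stood 0.37 below it, against 0.36 below in the reported fit. Without knockout 2 the counts were 4 lower and 0 higher, and without knockout 1 or knockout 3 they were 5 and 1. The probes called over the whole array also dropped in these fits, to 333 without knockout 2, 701 without knockout 1 and 513 without knockout 3. The members' counts were 7 and 1 without wild type 2, 6 and 1 without wild type 3, 9 and 2 without wild type 1, and 7 and 2 without wild type 4, where 688, 763, 999 and 836 probes of the whole array passed. Of the 52 member probes, 11 were lower and 3 were higher, against 4.91% and 3.97% of all probes tested (8.87% in either direction). These counts are descriptions, since a gene could pass the filter through the wild-type arrays alone. Among the 29 members detected on all 7 arrays, 6 were lower and 3 were higher, where 5.71% and 5.08% of all such genes were. With no filter, 6 of 58 members were lower and 2 were higher, and 784 of all 25697 probes passed in either direction. In this fit, with median scaling and with an array left out, members were counted by gene and the whole array by probe. Those counts are therefore not in like units.

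**Figure D1:**
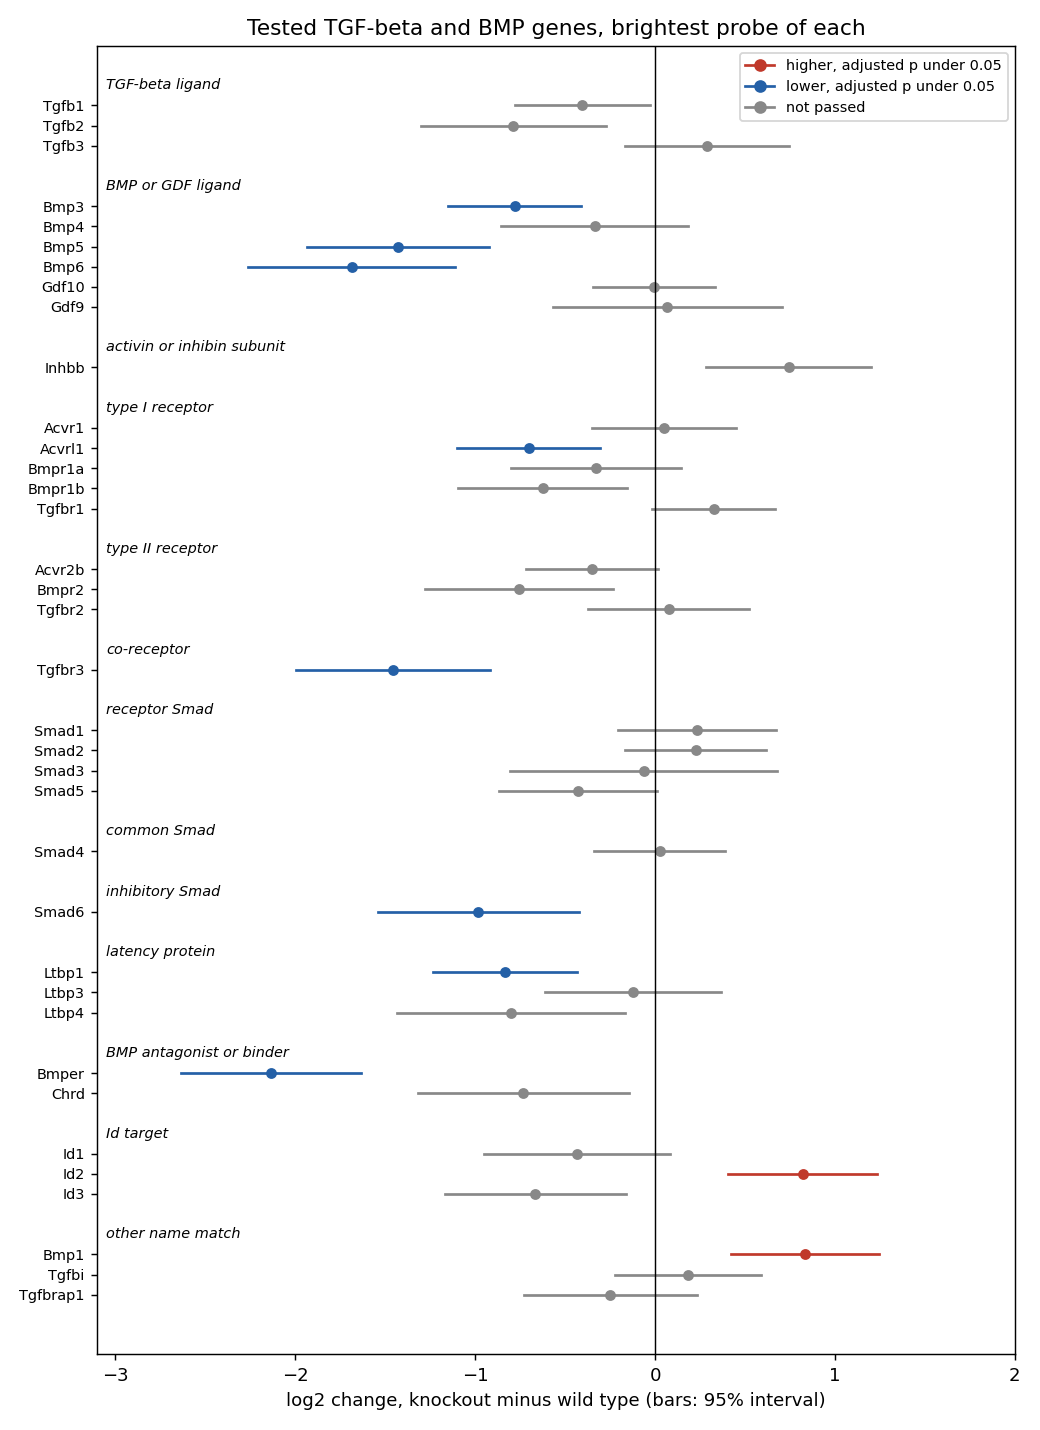
Log2 change of each tested gene (knockout minus wild type, horizontal axis) with its 95% interval, grouped by role; blue marks lower and red higher genes past an adjusted p of 0.05. The 8 blue genes are spread over ligands, receptors, an inhibitory Smad, a latency protein and a BMP binder, and Bmper lies farthest left at -2.13. The positions of Bmp5 and Bmp6 rest on knockout levels not above background on 3 and 2 arrays.

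Among the 10 ligands and subunits tested, 3 BMPs (30%) fell, against 5.11% of all named genes tested. Of these, Bmp5 and Bmp6 reached the filter through the wild type, where 3 and 4 arrays detected them, against 0 and 1 in the knockout. The share is therefore a description only, and Bmp3 was the lower ligand detected on all 7 arrays. Bmp6, a ligand made in lung endothelium that also controls iron balance in the liver, stood at 6.81, 6.09 and 6.50 in the knockout, and the wild-type arrays read 8.46, 7.63, 8.02 and 8.51. The genotypes did not overlap, but the probe was detected on 1 knockout array, so the size of its change rests partly on levels not above background. Bmp6 fell by 1.69 on these levels (SE 0.26, adjusted p = 0.00602), and by 0.44 with the authors' deposited values.

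Bmp5, a ligand of the same subfamily as Bmp6, stood at 5.58, 5.31 and 5.06 in the knockout, and the wild-type arrays read 6.22, 7.03, 6.76 and 6.96. Detection was reached on 0 arrays of the knockout and 3 of the wild type, and Bmp5 passed as lower (adjusted p = 0.00717). No size is given for it, because its wild-type mean of 6.74 lay below the lowest levels at which any probe was detected on the knockout arrays, 6.77, 7.15 and 7.29. It passed the filter through the wild-type arrays alone.

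Bmp3, a divergent family member that acts against other BMPs in bone, read 9.90, 9.60 and 10.002 on the knockout arrays. In the wild type it stood at 10.77, 10.47, 10.63 and 10.58, above all 3 knockout arrays. It fell by 0.78 (SE 0.16, adjusted p = 0.0198). It no longer passed when knockout 1 (adjusted p = 0.0506) or knockout 2 (0.107) was dropped.

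The BMP ligand with the brightest probe, Bmp4, which patterns the growing lung, did not pass. Its levels were 11.74, 12.13 and 12.71 in the knockout and 12.26, 12.57, 12.65 and 12.64 in the wild type, and the knockout arrays spanned most of the range. Its change was -0.33 (95% interval -0.85 to 0.18, adjusted p = 0.401). Gdf10 (-0.00, interval -0.34 to 0.34) and Gdf9 (0.07, interval -0.57 to 0.71) did not pass, and detection of Gdf9 was reached on 3 arrays in all.

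None of the TGF-beta ligands passed, at adjusted p-values of 0.165, 0.0632 and 0.41 for Tgfb1, Tgfb2 and Tgfb3. Tgfb1, the isoform best known for driving fibrosis, stood at 9.77, 9.86 and 9.66 in the knockout, and the wild-type arrays read 9.94, 10.13, 10.15 and 10.44. Those groups did not overlap, yet the change was small, at -0.40 (95% interval -0.78 to -0.03). Tgfb2 stood at 7.79, 6.99 and 7.58 against 7.90, 8.16, 8.49 and 8.42, a change of -0.79 (SE 0.23), and it passed with median scaling (adjusted p = 0.0321). Tgfb3 gave 0.29 (interval -0.17 to 0.74), with overlapping genotypes. Every knockout value was lower than every wild-type value for 13.1% of all named genes, and higher for 12.9%. Among the tested members these counts were 14 and 4 of 36.

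Inhbb, the beta B subunit shared by activin B and inhibin B, was the activin or inhibin gene that could be tested. Its knockout levels were 9.35, 9.40 and 8.74, and the wild-type arrays read 8.63, 8.16, 8.43 and 8.45, with every knockout array higher. The change of 0.74 (SE 0.21) had an adjusted p of 0.0532 and so did not pass, and it passed without knockout 3 (adjusted p = 0.0329). It passed too with an offset of 50 (0.0438), with no background correction (0.0472), with the stricter filter (0.0337) and with a variance trend (0.033).

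**Figure D2:**
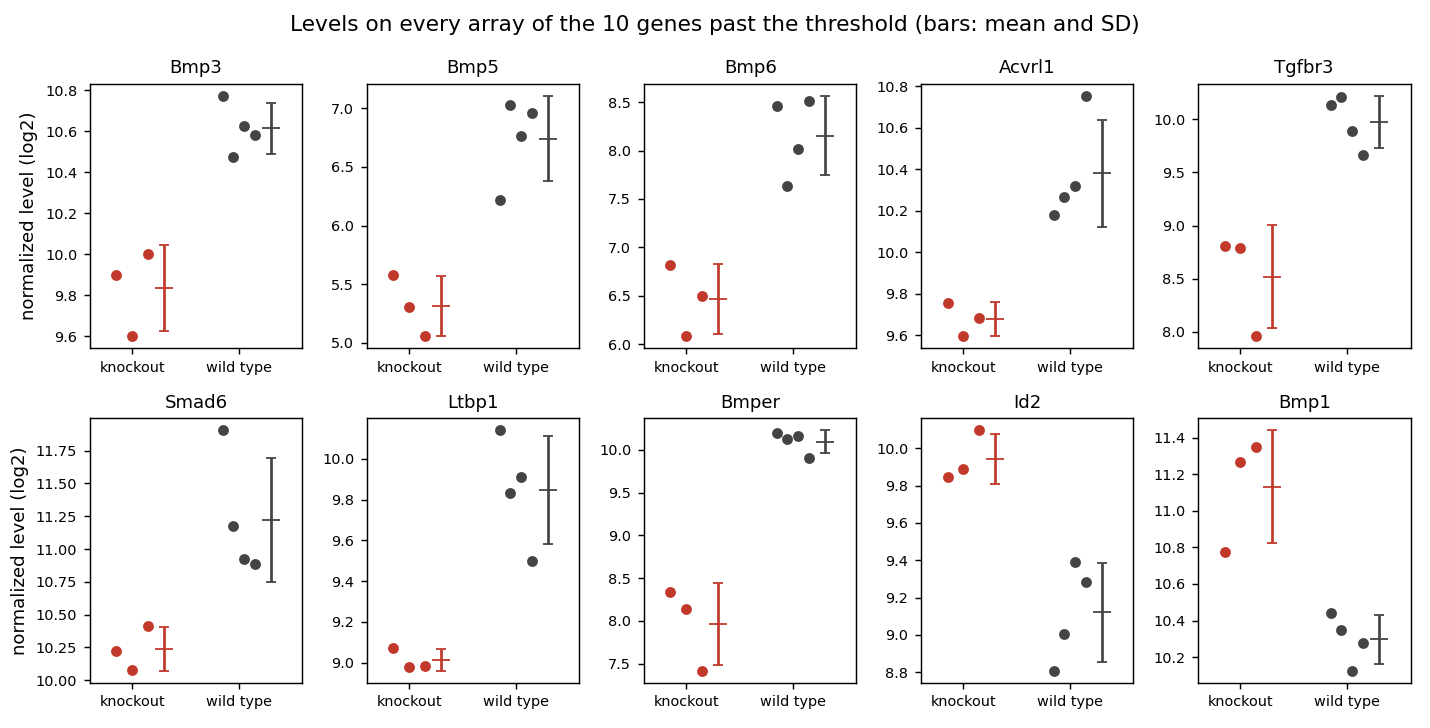
Normalized log2 levels (vertical axes, each with its own range) of the 10 genes past the threshold on the 3 knockout arrays (red) and 4 wild-type arrays (grey), with the mean and SD beside the points. In each panel the genotypes do not overlap, and the Bmper means are 7.96 and 10.10.

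Receptor kinases of both types and a co-receptor were measured, and 2 of the 9 tested genes (22.2%) were lower, against 5.11% of all named genes tested. Tgfbr3, or betaglycan, presents TGF-beta2 and inhibin to the kinase receptors. Its brightest probe stood at 8.81, 8.79 and 7.96 in the knockout, and the wild-type arrays read 10.13, 10.21, 9.89 and 9.67. Knockout 3 was lowest, and no knockout array reached the wild-type range. Tgfbr3 fell by 1.46 (SE 0.24, adjusted p = 0.00793). Its other probe, with 0 knockout arrays detecting it and 3 of wild type, lay lower by at least 1.41-fold (adjusted p = 0.048). That probe met the filter through the wild-type arrays alone. For the brightest probe, the authors' deposited values gave a fall by 0.82 and the signals without background correction a fall by 0.97.

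Acvrl1, the type I receptor ALK1 of endothelial cells, which binds BMP9 and BMP10, fell by 0.70 (SE 0.18, adjusted p = 0.04). Its levels were 9.76, 9.60 and 9.68 in the knockout and 10.18, 10.27, 10.32 and 10.75 in the wild type, a narrow gap with no overlap. It no longer passed when any array but wild type 1 was left out. Dropping knockout 1, 2 or 3 gave adjusted p-values of 0.0823, 0.154 and 0.106, dropping wild type 2, 3 or 4 gave 0.0654, 0.0737 and 0.0626, and using no filter gave 0.066.

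The TGF-beta receptor kinases themselves did not pass. Tgfbr2 stood at 13.76, 13.88 and 13.61 in the knockout, and the wild-type arrays read 14.10, 13.47, 13.74 and 13.38, with a change of 0.08 (95% interval -0.37 to 0.53, adjusted p = 0.842). Tgfbr1 stood at 13.32, 13.32 and 13.14 against 12.97, 12.85, 13.12 and 12.81, slightly higher on every knockout array, with a change of 0.33 (interval -0.02 to 0.67, adjusted p = 0.217). Its second tested probe gave 0.65 (adjusted p = 0.0796), with detection on 3 knockout arrays and 1 wild-type array.

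The other receptor chains gave mostly negative changes that missed the threshold. Bmpr2, the BMP type II receptor mutated in heritable pulmonary arterial hypertension in humans, stood at 6.65, 6.60 and 6.49 in the knockout, where it was detected on 0 arrays. In the wild type it stood at 7.78, 6.74, 7.33 and 7.49, and the difference did not pass (adjusted p = 0.0746). With knockout levels raised to the lowest detected level of each array, the knockout mean lay 1.20-fold lower, a bound without sampling error. Bmpr2 met the filter through the wild-type arrays alone. Without wild type 2, the lowest wild-type array, Bmpr2 passed (adjusted p = 0.0236). Bmpr1b gave -0.63 (adjusted p = 0.0975) and passed with median scaling (adjusted p = 0.0436). Bmpr1a (-0.33, adjusted p = 0.363), the activin type II receptor Acvr2b (-0.35, adjusted p = 0.216) and the BMP type I receptor Acvr1 (0.05, adjusted p = 0.89) did not pass.

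None of the 5 tested Smads that carry the signal passed. Smad4, the partner shared by both branches, stood at 13.48, 13.44 and 13.71 in the knockout, and the wild-type arrays read 13.68, 13.29, 13.50 and 13.60. Its change of 0.02 had a 95% interval from -0.34 to 0.39 (adjusted p = 0.942). Smad5 stood at 10.74, 10.88 and 10.44 against 11.40, 10.85, 11.29 and 10.91, a change of -0.43 (interval -0.87 to 0.01, adjusted p = 0.206). Smad1 (0.23, adjusted p = 0.492), Smad2 (0.23, adjusted p = 0.453) and Smad3 (-0.06, adjusted p = 0.927) did not pass either.

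Smad6, which blocks BMP receptors and Smad1 in a feedback loop, was the exception. Its knockout levels were 10.22, 10.08 and 10.42, and the wild-type arrays read 11.90, 11.17, 10.93 and 10.88, with wild type 1 well above the rest. Smad6 fell by 0.98 (SE 0.25, adjusted p = 0.0407), or 1.98-fold, and its other probe gave -0.90 (adjusted p = 0.0902) with no overlap. Dropping knockout 1, 2 or 3 gave adjusted p-values of 0.0962, 0.146 and 0.0759, dropping wild type 2 gave 0.0744, and using no filter gave 0.0722.

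Id proteins are dominant-negative helix-loop-helix factors, and their genes are used as readouts of BMP signalling. Id2 stood at 9.85, 9.89 and 10.10 in the knockout, and the wild-type arrays read 8.81, 9.01, 9.39 and 9.29, with every knockout array higher. It rose by 0.82 (SE 0.18, adjusted p = 0.0253), or 1.77-fold, and by 0.51 with the authors' deposited values. Dropping knockout 1, 2 or 3 gave adjusted p-values of 0.0551, 0.0865 and 0.0905, dropping wild type 2 gave 0.0616, and median scaling gave 0.113.

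Id1 and Id3 gave changes of the opposite sign and did not pass. Id1 stood at 11.87, 11.48 and 11.65 in the knockout, and the wild-type arrays read 11.53, 12.18, 12.20 and 12.50, where wild type 1 lay among the knockout arrays (change -0.43, adjusted p = 0.271). Id3 stood at 8.59, 8.19 and 8.24 against 8.51, 8.97, 9.41 and 9.14, again with wild type 1 among the knockout arrays (change -0.67, adjusted p = 0.0989). Without wild type 1 the Id3 change was -0.83 and passed (adjusted p = 0.0338), and that of Id1 did not pass in any setting tried. The difference between Id2 and the other Id genes was not tested.

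Promoter windows of Smad6, Id2 and Id3 are shown because these 3 target genes gave a lower, a higher and an unpassed change, and those of Bmper and Bmp6 because both are lower genes that encode a BMP binder and a BMP ligand. Each runs from 250 bases before to 50 after the annotated start, read 5′ to 3′ from RefSeq on mouse build GRCm38.p6. Capitals mark letters searched for on both strands: the Smad palindrome GTCTAGAC, the shorter Smad element CAGAC, and GGCGCC and GGAGCC, which BMP Smads can bind.
Smad6 promoter, chr9:64022010-64022309, minus strand: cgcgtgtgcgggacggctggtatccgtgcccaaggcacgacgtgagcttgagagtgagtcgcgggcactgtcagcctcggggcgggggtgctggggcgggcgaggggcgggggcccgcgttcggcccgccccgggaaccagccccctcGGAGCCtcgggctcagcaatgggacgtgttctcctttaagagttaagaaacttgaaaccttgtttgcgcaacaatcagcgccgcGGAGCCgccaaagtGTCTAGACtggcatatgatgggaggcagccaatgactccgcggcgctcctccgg
Id2 promoter, chr12:25096043-25096342, minus strand: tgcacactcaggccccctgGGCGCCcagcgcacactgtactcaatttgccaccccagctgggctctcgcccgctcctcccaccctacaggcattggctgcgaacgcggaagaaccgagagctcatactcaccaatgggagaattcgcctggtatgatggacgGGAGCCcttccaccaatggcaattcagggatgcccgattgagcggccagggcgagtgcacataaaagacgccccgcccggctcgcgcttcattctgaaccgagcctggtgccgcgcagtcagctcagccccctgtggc
Id3 promoter, chr4:136143572-136143871, plus strand: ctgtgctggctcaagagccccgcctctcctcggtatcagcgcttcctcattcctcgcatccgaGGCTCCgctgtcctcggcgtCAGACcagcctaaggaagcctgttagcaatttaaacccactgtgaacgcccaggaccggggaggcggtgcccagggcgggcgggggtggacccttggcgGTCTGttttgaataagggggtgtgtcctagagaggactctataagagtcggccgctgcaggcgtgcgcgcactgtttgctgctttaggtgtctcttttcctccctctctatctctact
Bmper promoter, chr9:23222826-23223125, plus strand: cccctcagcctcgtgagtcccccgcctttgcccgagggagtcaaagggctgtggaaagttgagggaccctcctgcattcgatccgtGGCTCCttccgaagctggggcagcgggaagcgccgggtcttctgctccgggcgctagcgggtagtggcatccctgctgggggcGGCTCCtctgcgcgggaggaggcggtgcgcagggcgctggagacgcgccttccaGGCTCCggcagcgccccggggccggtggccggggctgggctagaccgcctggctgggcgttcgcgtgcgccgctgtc
Bmp6 promoter, chr13:38345466-38345765, plus strand: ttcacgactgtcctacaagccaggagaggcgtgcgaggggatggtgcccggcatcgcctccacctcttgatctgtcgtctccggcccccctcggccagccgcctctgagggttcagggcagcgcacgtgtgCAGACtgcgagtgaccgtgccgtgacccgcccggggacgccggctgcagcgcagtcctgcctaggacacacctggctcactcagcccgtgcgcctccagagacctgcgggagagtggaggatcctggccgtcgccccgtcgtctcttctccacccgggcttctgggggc

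The palindrome GTCTAGAC occurred in the Smad6 window at bases 247 to 254, across the annotated start, and in no other member's window. It was present in 0.213% of all 32851 windows in the promoter table. Of the 58 genes, 43 had a window, 53 windows in all. CAGAC was found in 45.3% of them and in 49.6% of all windows, and CAGACA, which contains it, in 17% and 21%. GGCGCC stood in 30.2% of the members' windows against 11.9% of all, and GGAGCC in 49.1% against 30.8%. GGCGCC followed after 5 unspecified bases by GTCT was in 0 of the 53 windows and in 0.0731% of all. These are matches of letters, and base composition was not taken into account.

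Latency proteins and BMP binders had a median change of -0.80 over 5 tested genes. That of the 10 ligands and subunits was -0.37, that of the 9 receptors -0.35 and that of the 6 Smads -0.02. Bmper, a chordin-like protein of vessel walls that binds BMPs and can either blunt or aid their action, stood at 8.33, 8.14 and 7.42 in the knockout. In the wild type it stood at 10.20, 10.12, 10.16 and 9.91, a tight group well above the knockout. Bmper fell by 2.13 (SE 0.22, adjusted p = 0.00125), and by 1.12 with the authors' deposited values and 1.34 without background correction.

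Chrd, or chordin, stood at 7.79, 7.26 and 6.64 in the knockout, and the wild-type arrays read 7.82, 8.30, 7.80 and 7.93, just short of overlap. Its change of -0.73 (SE 0.26) did not pass (adjusted p = 0.117), and passed without knockout 1 (adjusted p = 0.0464). Chordin was detected on 2 knockout arrays.

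Ltbp1, which anchors latent TGF-beta to the matrix, stood at 9.07, 8.98 and 8.98 in the knockout, and the wild-type arrays read 10.14, 9.83, 9.91 and 9.50. It fell by 0.83 (SE 0.18, adjusted p = 0.0214), and by 0.51 with the authors' deposited values. Dropping knockout 1, 2 or 3 gave adjusted p-values of 0.0537, 0.0907 and 0.0697, and dropping wild type 3 gave 0.0534. Its other tested probe, dim and above background on 3 of the 7 arrays, gave 0.46 (adjusted p = 0.367), the opposite sign.

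Ltbp4, which guides elastic fibre assembly and binds latent TGF-beta1, had probes that split at the threshold. The brightest stood at 11.79, 11.85 and 12.19 in the knockout, and the wild-type arrays read 13.39, 12.40, 12.18 and 13.02. Knockout 3 lay just above wild type 3, so the genotypes overlapped, and the change was -0.80 (adjusted p = 0.113). A second probe fell by 0.91 (adjusted p = 0.032). The dimmest, above background on all 4 wild-type and 0 knockout arrays, lay lower by at least 1.63-fold (adjusted p = 0.00723). That dimmest probe met the filter through the wild-type arrays alone. With median scaling the brightest probe passed as well (adjusted p = 0.0489). Ltbp3 gave -0.12 by its brightest probe and 0.36 by the other, and neither passed.

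**Figure D3:**
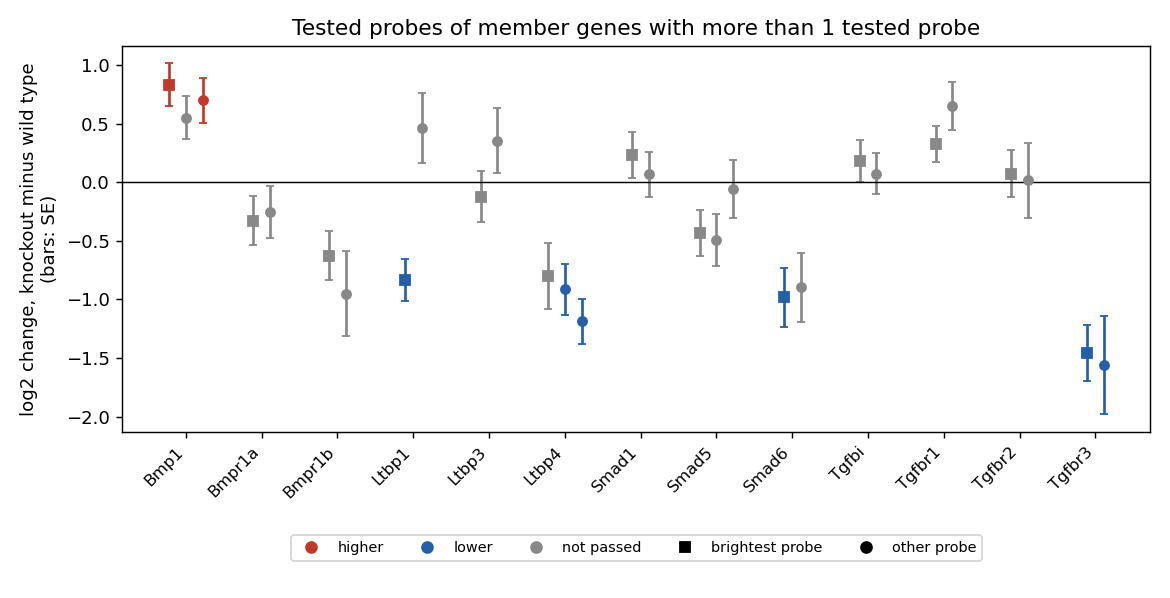
Log2 change (vertical axis, knockout minus wild type, with SE) of every tested probe of the 13 member genes that had more than 1, with squares for the brightest probe. Probes of 11 genes agree in sign, those of Ltbp1 and Ltbp3 do not, and in 4 genes some probes passed and others did not.

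Some members carry the family name without being ligand, receptor or Smad. Bmp1, the procollagen C-proteinase that also cleaves chordin, stood at 10.78, 11.27 and 11.35 in the knockout, and the wild-type arrays read 10.44, 10.35, 10.12 and 10.28. It rose by 0.83 (SE 0.18, adjusted p = 0.0236), with a second probe at 0.70 (adjusted p = 0.0489) and another at 0.55 (adjusted p = 0.0938), all without overlap. For the brightest probe, dropping knockout 2 or 3 gave adjusted p-values of 0.11 and 0.0888, dropping wild type 3 gave 0.0603, and median scaling gave 0.0633.

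Tgfbi, a matrix protein induced by TGF-beta, gave 0.18 (95% interval -0.22 to 0.59, adjusted p = 0.564). Tgfbrap1, a receptor-associated trafficking protein, stood at 11.49, 11.61 and 11.46 in the knockout, and the wild-type arrays read 12.29, 11.51, 11.46 and 11.81, with overlap (change -0.25, adjusted p = 0.505). Neither gene passed in any setting tried.

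The remaining 22 members were detected on fewer than 3 arrays and could not be tested. They were the ligands Bmp2, Bmp7, Bmp8a, Bmp8b, Bmp10, Bmp15, Gdf2, Gdf3, Gdf5, Gdf6 and Gdf7, the subunits Inhba, Inhbc and Inhbe, and the receptors Acvr1b, Acvr1c and Acvr2a. Smad9, Ltbp2, the antagonists Grem1 and Nog, and the kinase Bmp2k completed them. Inhba was detected on 2 wild-type arrays, and Bmp7 and Bmp2k on 1 array each. With no filter, none of these 22 passed. Gdf2 and Bmp10, which encode the Acvrl1 ligands BMP9 and BMP10, were not detected on any array.

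Across settings, 4 of the 10 called genes passed in every one that tested them: Bmp5, Bmp6, Bmper and Tgfbr3. The stricter filter left Bmp5 and Bmp6 untested. Bmp5 was detected on 0 knockout arrays and Bmp6 on 1, so passing in the other settings rests on knockout levels mostly not above background. Bmp5 met the filter through the wild-type arrays alone, and for Bmp6 the 4 wild-type arrays met it without the knockout. The other 6 missed the threshold in at least 2 settings, and no called gene changed sign. Over the 8 lower genes, knockout 2 was the lowest knockout array for 5 and knockout 3 for 3.

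**Figure D4:**
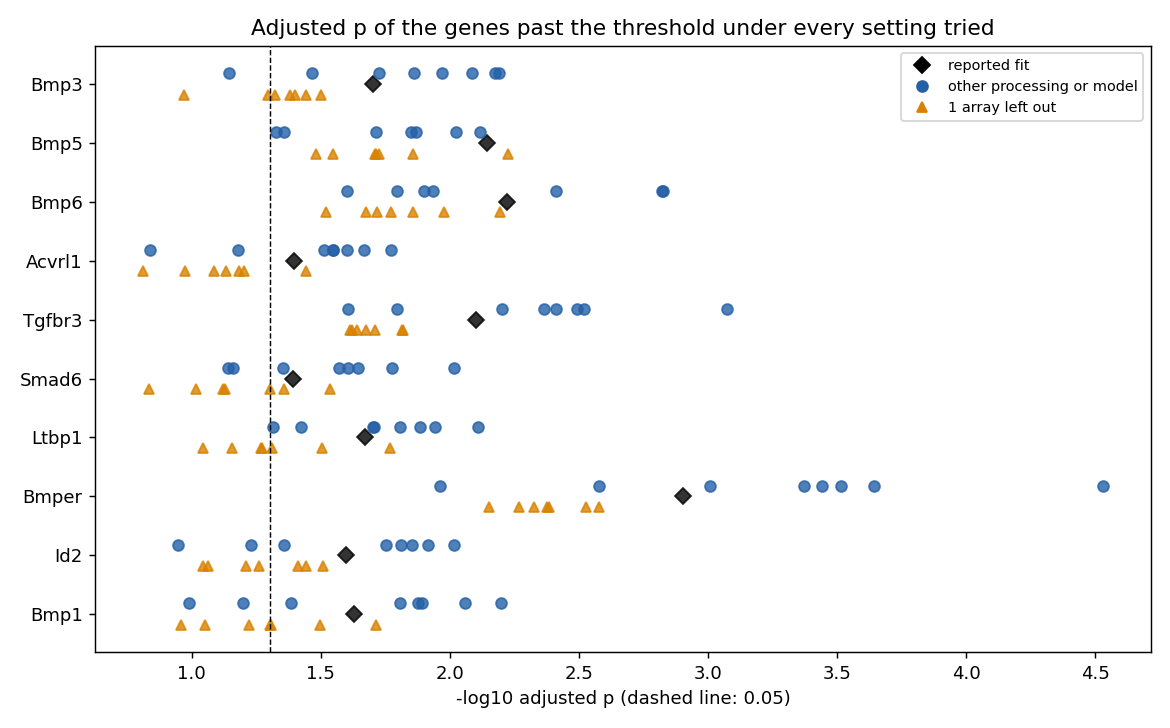
Adjusted p of each called gene as its negative log10 (horizontal axis, higher to the right) in the reported fit (diamonds), under other processing or models (circles) and with 1 array left out (triangles); the dashed line marks 0.05. All points of Bmp5, Bmp6, Bmper and Tgfbr3 lie right of the line, and the other 6 genes straddle it.

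Of the 48 further pathway genes listed, 41 had a probe and 25 were tested, with 3 lower (12%) and 0 higher and a median change of -0.36. Over all named genes tested, 5.11% were lower and 3.68% higher, with a median change of 0.01. Eng, or endoglin, the endothelial co-receptor that works with ALK1, stood at 11.21, 10.70 and 10.98 in the knockout. In the wild type it stood at 12.53, 11.90, 12.12 and 12.32, with no overlap, and it fell by 1.25 (SE 0.20, adjusted p = 0.00723) and passed in every setting. Dcn, or decorin, a proteoglycan that binds TGF-beta, fell by 0.64 (adjusted p = 0.0456), and Col3a1, a fibrillar collagen and TGF-beta target, fell by 0.66 (adjusted p = 0.048). The other tested probe of Dcn gave -0.63 (adjusted p = 0.0653) and did not pass. That of Col3a1 gave -0.74 (adjusted p = 0.214) with overlap, detected on 1 knockout and 3 wild-type arrays. By its brightest probe, Dcn missed the threshold in each fit that left out 1 array, with an adjusted p from 0.0511 to 0.187. The brightest probe of Col3a1 passed in the fit without knockout 1 (0.0454) and missed it in the other 6, with an adjusted p from 0.057 to 0.167.

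Other genes of that list missed the threshold. They included the target Ccn2 (-0.50, adjusted p = 0.0983), the collagen Col1a1 (-0.83, adjusted p = 0.0597), the binder Bgn (-0.52, adjusted p = 0.0777) and the Smad repressor Skil (-0.44, adjusted p = 0.126). Itgb6, the epithelial integrin chain that activates latent TGF-beta, gave -0.20 (adjusted p = 0.702), and Thbs1, another activator, gave 0.16 (adjusted p = 0.816). Cdkn1a, a cell cycle inhibitor induced by TGF-beta, gave 0.78 (adjusted p = 0.139).

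Markers of other cells moved with the genotype beside these genes. Over all named genes tested, 5.11% were lower and 3.68% were higher. In the endothelial list 6 of 7 tested genes were lower, among them Cdh5 (-1.20), Pecam1 (-1.18) and Tie1 (-1.58), and the mean log2 level of the list ran from 10.90 to 11.15 in the knockout and from 12.06 to 12.32 in the wild type. Kdr could not be tested. Eng belongs to that list and to the pathway list above. The fibroblast list had 3 of 6 genes lower, with mean levels from 10.50 to 10.83 against 11.18 to 11.45. Its lower genes Dcn and Col3a1, and Col1a1, belong also to the pathway list above, by the same probes. With Eng, every lower gene of the pathway list is thus a marker gene here, so these lists are not separate observations. Smooth muscle and pericyte genes were lower in 3 of 6, from 9.55 to 9.86 against 10.31 to 10.72. The part of these shifts in the results above was not tested.

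Immediate-early genes, which respond within minutes to handling and growth factors, were lower in 5 of 5, including Egr1 (-3.71) and Fos (-2.76). Their mean level ran from 11.84 to 11.95 in the knockout and from 13.58 to 14.10 in the wild type, and their part in the Id and Smad6 values was not tested. Alveolar type 1 markers, with 0 of 3 called by their brightest probes, ran from 14.38 to 14.51 against 13.70 to 14.29. A dimmer probe of the type 1 marker Aqp5 did pass as higher (1.11, adjusted p = 0.0184), and Hopx and Rtkn2 could not be tested. Type 2 markers, with 1 of 6 higher, ran from 14.77 to 14.95 against 14.41 to 14.72. Macrophage genes, 1 of 2 higher (Chil3), ran from 12.39 to 12.77 against 11.78 to 12.32. Itgax, Marco and Siglecf could not be tested, and Cd68 had no probe. Lymphocyte genes, 1 of 4 lower, ran from 8.53 to 8.76 against 9.13 to 9.56, and red cell genes, 1 of 3 lower, from 11.90 to 13.05 against 13.26 to 14.47. The lower lymphocyte gene was Cd79a (-1.60), and Cd3e (-0.03), Cd3g (-0.46) and Cd79b (-0.69) did not pass. None of the 2 airway, 3 mesothelial and 4 heart muscle genes passed.

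**Figure D5:**
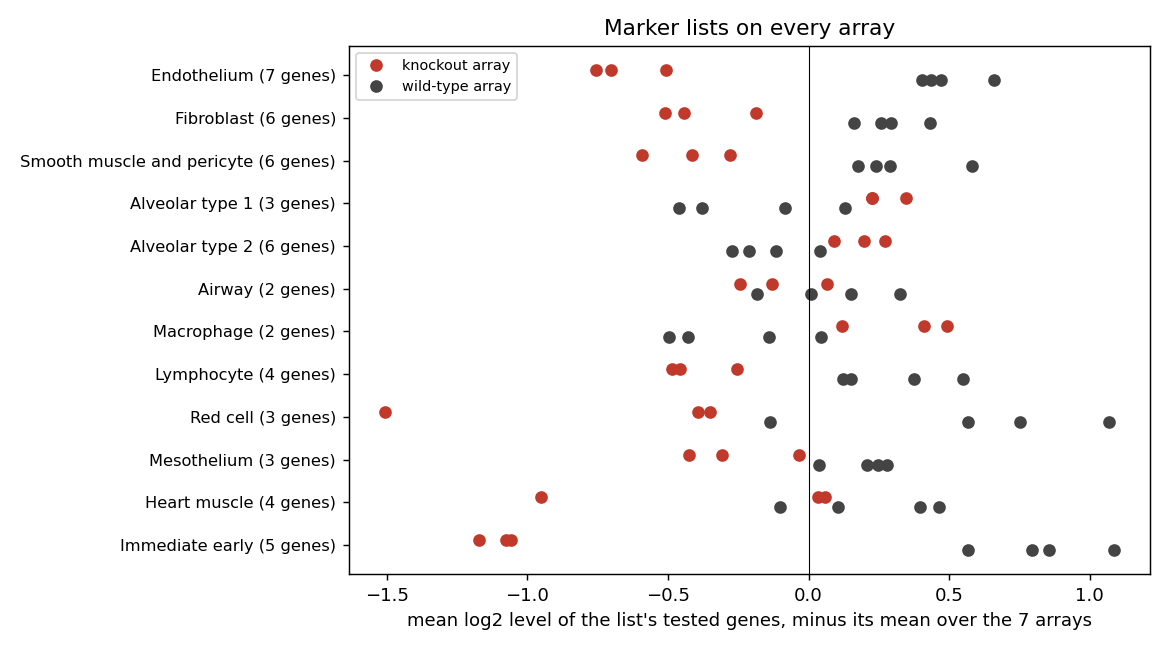
Mean log2 level of each marker list's tested genes on every array (horizontal axis, relative to the list's mean over the 7 arrays), in red for knockout and grey for wild type. The endothelial, fibroblast, smooth muscle and immediate-early lists are among those with every knockout array lower, and the airway and heart muscle lists overlap.

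Some members share a chromosome with the deleted gene. On chromosome 9, where Cldn18 lies in the GRCm38 gene table, 6 tested members were found, and Bmper, Smad6 and Bmp5 among them were lower. Between Cldn18 and these 3 genes lay 275, 110 and 57 tested genes. Smad3, Tgfbr2 and Acvr2b, with 111, 98 and 109 genes between, did not pass. Over all 491 tested genes of chromosome 9, 5.91% were lower and 3.05% were higher. Alleles linked to the targeted locus in this mixed background and the deletion itself cannot be told apart by these arrays.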

How the data were processed

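RNA of whole lung (1 µg per array) from 3 knockout and 4 wild-type samples was hybridised to Illumina MouseRef-8 v2 arrays, per the labels. The deposited intensity values are mean bead signals on a linear scale with a detection p-value per probe, per the file headers, and carry no background subtraction (lowest signal 114). The authors' second table holds log2-like values, for which the submitters' processing notes name lumi 1.14.0 and R 2.11.1. These deposited log2 values were used as an alternative only, and their exact transformation is unknown.

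Signals were processed with limma 3.58.1 in R 4.3.3. The neqc function used the deposited detection p-values to correct background, with an offset of 16, then quantile-normalized and took log2. Only probes detected (p under 0.01) on 3 or more arrays entered the fit, and genotypes were compared with lmFit and eBayes over all 11902 of them. Of 25697 probes, 23978 had 1 symbol, 0 several and 1719 none. Array number limits the precision. Where a genotype was detected on 0 arrays, its levels were raised to the lowest detected level of each array and the fold given as a bound. Levels of different probes are not comparable. The scripts were tested on simulated data, and figures drawn with Python 3.11.15.

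The members and lists were chosen with earlier results of these data known. Every member was named, with values on each array for genes past the threshold and for the brightest gene of each role. Alternatives changed background correction, normalization, filter, variance model, value source, and arrays. The labels name no litter, batch or day shared by same-numbered arrays, so the numbers were not treated as pairs. Deviations from the genotype means of same-numbered arrays correlated at -0.02, -0.00 and -0.14 for numbers 1, 2 and 3, too few values to exclude a pairing. The labels speak of 4 replicates per genotype, but no knockout array with number 4 was among the samples.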

Additional observations from a re-analysis of the deposited data

Results flagged for a closer look

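Smad2 on wild type 2 stood apart from the other wild-type arrays. Its log2 level was 9.68 there and 10.01, 9.98 and 9.996 on the others, a gap that took up most of the range of the 4 arrays. How often such a gap arises by chance was not measured, and 36 genes were tested, each with a knockout and a wild-type group. Knockout 3 likewise stood apart from knockout 1 and 2 for Tgfbr3 (7.96 against 8.81 and 8.79) and Tgfbr1 (13.14 against 13.32 and 13.32).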

How the results depend on the processing

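Of the 10 called genes, Bmp5, Bmp6, Bmper and Tgfbr3 passed in every setting that tested them (the stricter filter left out Bmp5 and Bmp6), and none of the 10 changed sign. Lower members numbered 6 to 11 and higher members 0 to 3 under other processing, the 0 with median scaling, and leaving out 1 array gave 4 to 9 lower and 0 to 2 higher. The further pathway genes were lower in 5 with no background correction, with the authors' values or with a variance trend, in 1 with no filter, and in 1 to 2 with an array left out. The members' median of -0.34 was -0.51 with median scaling and -0.22 with the authors' values (-0.41 to -0.30 with an array left out). For ligands these were -0.52, -0.27 and -0.47 to -0.26, and -0.17 with the stricter filter. Receptors gave -0.53 with median scaling (-0.45 to -0.29). Smads ranged from -0.19 to 0.070 with an array left out. Latency proteins and binders gave -0.59 with no background correction and -0.51 with the authors' values (-0.86 to -0.74). With the replicate number as a block over replicates 1 to 3, members gave 5 lower and 0 higher genes, the further genes 1 lower, Gdf9 -0.087 and Tgfbr2 -0.021, against 401 of 11902 probes called. No knockout array correlated best with the wild-type array of its number, but so few correlations cannot show whether samples shared a litter or day. Why calls were lost in that fit was not tested. Genes near 0 that did not pass changed sign. These were Acvr1 (-0.15), Gdf9 (-0.051) and Smad4 (-0.014) with median scaling and Smad3 (0.0022) with the authors' values. With an array left out, Acvr1 ran from -0.0072 to 0.17, Gdf10 from -0.084 to 0.077, Gdf9 from -0.20 to 0.27, Ltbp3 from -0.24 to 0.042, Smad3 from -0.45 to 0.31, Smad4 from -0.059 to 0.079 and Tgfbr2 from -0.021 to 0.22. The causes were not tested. Weak signal limits Bmp5, Bmp6, Bmpr2 and the 22 untested genes.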
